A study of Mus musculus with 4 samples.

Results

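Ctla4 was followed in the droplets, or barcodes, of tumours that the mouse colon carcinoma line MC38 formed in mice. Ctla4 is 1 of 26172 genes named in the deposited count matrices of both libraries together, and 1 of 22649 listed for both. It was chosen because Ctla4 was already known from these counts to be present in 2 kinds of barcode, so its presence in them is a description and was not tested. Deep barcodes were those with at least 5000 UMIs, the tags that count single molecules, and no UMI of the CD3 genes Cd3e, Cd3d and Cd3g or of Ptprc, the gene of the leukocyte antigen CD45. T barcodes were those with under 5000 UMIs and at least 1 CD3 UMI. The rule gave 155 T barcodes of 11087 barcodes in the FOXP3 humanized library and 96 of 7691 in the wild-type library. It gave 9671 deep barcodes in the humanized library and 6705 in the wild-type library. The mice carried a humanized FOXP3 gene or were wild-type, were 10 weeks old and received no treatment, and tumours were taken on day 20. Tumour-infiltrating immune cells were isolated by Percoll gradient and captured in DNBelab C droplets, 1 cDNA library per genotype, and neither the number of mice behind each library nor the extent of the humanized sequence is given in the sources used. With 1 library per genotype no value below has a replicate check or a p-value, and the effects of genotype, library and mouse cannot be told apart. Intervals are 95% intervals that cover counting error only.

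CTLA4 is an inhibitory receptor of T cells. It binds CD80 and CD86 on antigen-presenting cells, the same ligands as the activating receptor CD28, and takes them off those cells. Regulatory T (Treg) cells, which are defined by the transcription factor FOXP3, carry CTLA4 all the time, and other T cells make it once activated. Cd28, Ctla4 and Icos, an activating relative, lie next to each other in the mouse genome.

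The libraries held 147738781 UMIs (humanized) and 134214718 UMIs (wild-type). Median depth was 1587 UMIs in humanized and 1700.5 in wild-type T barcodes, and 12522 and 16866 in the deep barcodes of those libraries. Of the 18 T cell markers, 4 were used by the rule, and the whole list summed to 8373 CPM (counts per 1000000 UMIs) in humanized and 10090 CPM in wild-type T barcodes, against 3.91 and 4.48 CPM in deep barcodes. The label tumour cells was checked against 7 epithelial markers, which summed to 3.11 CPM in humanized and 5.74 CPM in wild-type deep barcodes, with Krt20 at 0 in both. Macrophage markers summed to 9.03 and 9.01 CPM there, and 6 fibroblast markers, led by Col3a1, to 133 and 109 CPM. B and plasma cell markers summed to 8.10 CPM in humanized and 0.15 CPM in wild-type deep barcodes, and their part in the levels below was not tested. Because the epithelial markers were near 0, these barcodes are called deep barcodes and given no cell type. The libraries shared 1551 barcode names, 0 of them with the same total of UMIs.

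Ctla4 was among the genes with the most UMIs in T barcodes and was also counted in most deep barcodes. In T barcodes it had 186 UMIs, or 664 CPM (572 to 767), in the humanized library and 131 UMIs, or 706 CPM (591 to 838), in the wild-type library. Of the genes listed for both libraries, 183 had a higher level than Ctla4 in humanized and 185 in wild-type T barcodes. In deep barcodes Ctla4 had 10662 UMIs, or 75.8 CPM (74.4 to 77.3), in the humanized library and 7010 UMIs, or 54.3 CPM (53.02 to 55.6), in the wild-type library. Its deep level was above that of 93.2% of genes in the humanized and 89.8% in the wild-type library.

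The T level was 8.76-fold the deep level in the humanized library (log2 3.13, 2.91 to 3.34) and 13.02-fold in the wild-type library (log2 3.70, 3.44 to 3.95). Many genes differed this way between barcodes of such unlike depth and type. Among the genes whose sums held 20 UMIs or more in all, 42.5% in the humanized and 44.5% in the wild-type library were at least 2-fold higher in T barcodes, and Ctla4's ratio stood above that of 88.1% and 91.2% of them. T barcodes that just met the rule, with 1 CD3 UMI, had 477 CPM (295 to 729, 21 barcodes) in the humanized and 593 CPM (324 to 995, 12 barcodes) in the wild-type library, and those with 2 or more had 699 CPM (597 to 815) and 723 CPM (598 to 867). Since deep barcodes far outnumbered T barcodes and were deeper, T barcodes held 1.62% of all Ctla4 UMIs of the humanized library and 1.76% of those of the wild-type library, while deep barcodes held 93.0% and 93.9%. Of the UMIs of all genes, deep barcodes held 140575771 of 147738781 in the humanized and 129144384 of 134214718 in the wild-type library. T barcodes held 279949 and 185429 of these.

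The share of barcodes with a Ctla4 UMI depended on depth. It was 45.8% (37.8 to 54.0) in humanized and 54.2% (43.7 to 64.4) in wild-type T barcodes, against 62.5% (61.6 to 63.5) and 60.9% (59.7 to 62.0) in deep barcodes. With every barcode thinned to 1000 UMIs, the expected share was 33.8% in humanized and 41.1% in wild-type T barcodes, against 7.65% and 5.62% in deep barcodes. The order of the shares before thinning thus ran against the CPM, and after thinning it did not. Single deep barcodes held few Ctla4 UMIs. The highest count was 33 in a humanized and 7 in a wild-type T barcode, against 10 and 8 in a deep barcode. Counts of 5 or more were held by 5.16% of humanized and 9.38% of wild-type T barcodes, against 1.46% and 1.15% of deep barcodes.

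**Figure D1:**
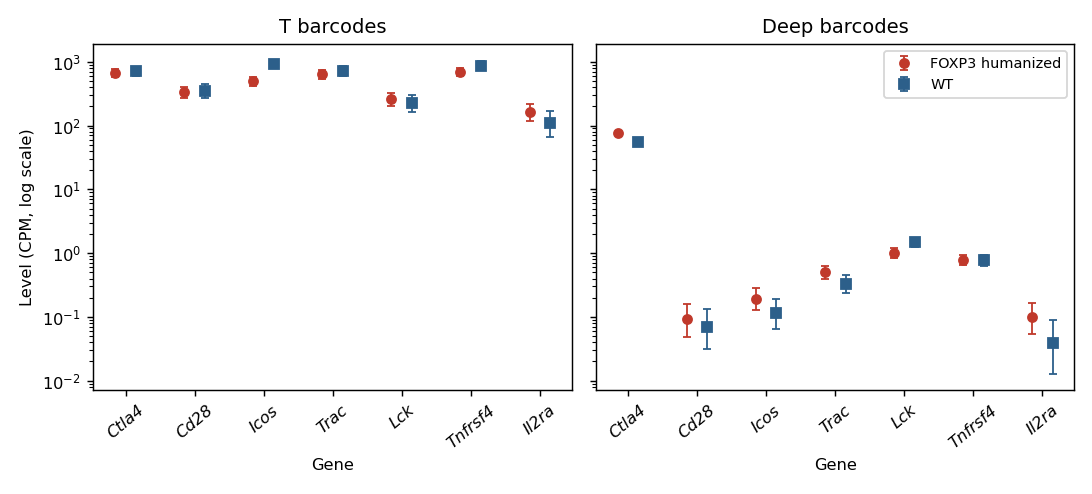
Levels of Ctla4 and 6 T cell genes in CPM on a log scale, in T barcodes (left panel) and deep barcodes (right panel), for the FOXP3 humanized and WT libraries, with 95% Poisson intervals that cover counting error only. In T barcodes Ctla4 is at 664 and 706 CPM, beside the other genes, and in deep barcodes it is at 75.8 and 54.3 CPM while the others are at or below 1.47 CPM.

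The neighbours and partners of Ctla4 were set beside it. Cd28 had 332 CPM in humanized and 351 CPM in wild-type T barcodes, against 0.092 CPM (13 UMIs) and 0.070 CPM (9 UMIs) in deep barcodes. Icos had 493 CPM in humanized and 928 CPM in wild-type T barcodes, against 0.19 CPM (27 UMIs) and 0.12 CPM (15 UMIs) in deep barcodes. Both relatives were therefore near 0 in the barcodes where Ctla4 had its 10662 and 7010 UMIs. The UMIs of Ctla4 and Cd28 thus stood at 186 to 93 in humanized and 131 to 65 in wild-type T barcodes, against 10662 to 13 and 7010 to 9 in deep barcodes. Cd80, a ligand, had 0 UMIs in humanized and 2 UMIs (10.8 CPM) in wild-type T barcodes, against 22 UMIs (0.16 CPM) and 20 UMIs (0.15 CPM) in deep barcodes. Cd86, the other ligand, had 2 UMIs in T barcodes of each library, or 7.14 CPM (0.87 to 25.8) in humanized and 10.8 CPM (1.31 to 39.0) in wild-type, against 0.021 CPM (3 UMIs) and 0.062 CPM (8 UMIs) in deep barcodes. Foxp3 had 42.9 CPM (12 UMIs) in humanized and 210 CPM (39 UMIs) in wild-type T barcodes, against 0.17 and 0.15 CPM in deep barcodes. The sources used here do not say how reads of the humanized allele were counted, so the Foxp3 counts of the 2 libraries may not measure the same thing. Farther along the chromosome, in the order of RefSeq's gene table for GRCm38.p6, Raph1 had 16.3 CPM in humanized and 19.1 CPM in wild-type deep barcodes and Nrp2, a semaphorin and VEGF co-receptor, 110 and 120 CPM.

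Deep levels were next expressed as a percent of T levels. For Ctla4 this was 11.4% in the humanized and 7.68% in the wild-type library. The 14 T cell genes that the rule did not use were below 1% in both libraries, with medians of 0.046% and 0.026% and Lck, the kinase that starts T cell receptor signalling, highest at 0.38% and 0.65%. Of 46 T cell, Treg and checkpoint genes outside the rule, 30 had at least 10 UMIs in the T barcodes of each library. This minimum favours genes that are high in T barcodes, and so low percents, and the counts hold for the 30 alone. Of these 30, 25 were below 1% in each library and 2 were above Ctla4 in each. Those were Capg, an actin-capping protein, at 61.0% in the humanized and 56.4% in the wild-type library, and Rgs16, a brake on G protein signalling, at 16.0% and 19.6%. Among genes left out by the minimum, Havcr2 was also above Ctla4, at 80.4% and 17.6%, from 2 and 6 T UMIs. Il1rl1, also left out, was at 27.2% in the humanized library and had 0 wild-type T UMIs. Others left out lay below Ctla4, such as Itgae at 3.85% and 2.06%. The inhibitory receptors Pdcd1 and Vsir were at 0.071% and 0.20% in the humanized and 0.027% and 0.18% in the wild-type library. A wider count gave 309 genes at least 5-fold higher in T barcodes of both libraries with at least 20 T UMIs each. Of the 308 other than Ctla4, 136 had a deep level below 1% of the T level, and 8 had a deep level as high as that of Ctla4, namely Arhgdib, Fos, Junb, Malat1, Ndfip1, Nfkbia, Odc1 and Tmsb4x. The 5-fold cut-off itself picks genes with a low deep level relative to T, so these counts are a description. Over all 22649 genes, 1549 had a higher deep level than Ctla4 in the humanized and 2301 in the wild-type library.

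**Figure D2:**
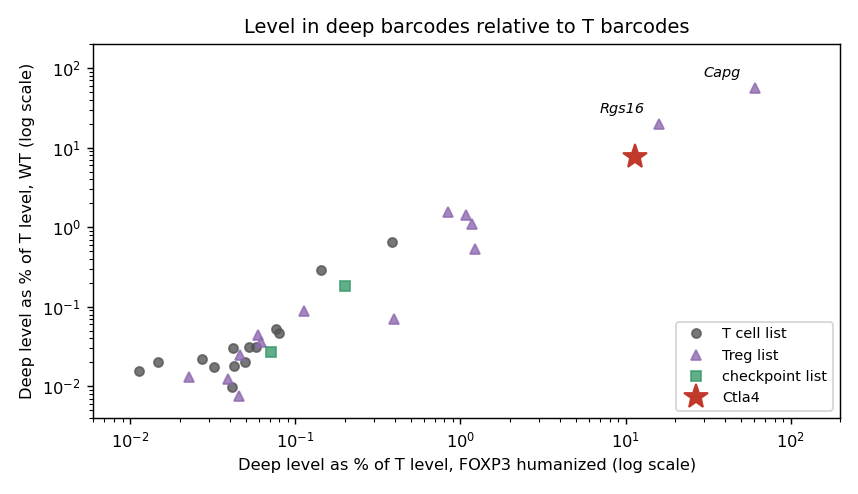
Level in deep barcodes as a percent of the level in T barcodes, FOXP3 humanized on the x axis and WT on the y axis, both on log scales, for Ctla4 (star) and 30 genes of the T cell, Treg and checkpoint lists with at least 10 T UMIs in each library. Ctla4 is at 11.4% and 7.68%, Capg and Rgs16 are above it, and 25 genes are below 1% in each library.

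T cell transcripts were scarce in deep barcodes with and without Ctla4. The other T cell genes summed to 3.94 CPM (3.56 to 4.36) in humanized deep barcodes with a Ctla4 UMI and 3.82 CPM (3.25 to 4.45) in those without. In the wild-type library they summed to 4.33 CPM (3.91 to 4.79) in deep barcodes with a Ctla4 UMI and 4.79 CPM (4.14 to 5.51) in those without. Cd28 and Icos together were at 0.28 CPM with and without a Ctla4 UMI in the humanized library, and at 0.18 and 0.20 CPM in the wild-type library. Sorted the other way, deep barcodes with 2 or more UMIs of the other T cell genes had 110 CPM of Ctla4 (80.8 to 145, 20 barcodes) in the humanized and 50.9 CPM (39.4 to 64.6, 44 barcodes) in the wild-type library. Deep barcodes with 0 such UMIs had 76.0 CPM (74.5 to 77.5) in the humanized and 54.6 CPM (53.2 to 55.9) in the wild-type library. The intervals with 2 or more thus lay above these in the humanized and held them in the wild-type library. The humanized value with 2 or more rests on 48 Ctla4 UMIs, of which 1 barcode held 10, or 20.8%. Its level without that barcode was not computed.

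Ctla4 was then compared across barcodes gene by gene. The measure was the Pearson correlation with Ctla4 of log-scaled counts after the mean of each of 20 depth bins had been taken off, over 9671 humanized and 6705 wild-type deep barcodes and 12286 genes. Barcodes of a library share its preparation and sequencing, and the correlations are given as a description. Rps24, Rps10, Rps21, Rps16, Rpl13 and Rps27, all ribosomal protein genes, were among the genes most like Ctla4, at 0.13 to 0.15 in the humanized and 0.12 to 0.13 in the wild-type library. The median over all compared genes was -0.011 in each library. All of these correlations are weak.

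In GENCODE M21, on GRCm38, Ctla4 spans chr1:60887000-60915832 on the plus strand and has 3 transcripts. The 2 protein-coding transcripts start at 60909025 and 60909171, and a non-coding transcript of 4 exons starts at the gene's first base, so that most of the annotated span lies before the coding transcripts. The authors' counts were made on GRCm39, per the submitters' processing notes, and the sources used here do not name their annotation, so the coordinates hold for GRCm38 alone. Those sources also do not say whether reads within introns were counted, and the matrices hold no reads. Which RNA the UMIs counted as Ctla4 came from was not tested, in deep or in T barcodes, and every Ctla4 level in this text is the level of UMIs counted as Ctla4.

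Among deep barcodes Ctla4 was lower the deeper the barcode. In bins of 5000 to 10000, 10000 to 20000, 20000 to 40000 and 40000 or more UMIs it had 88.9, 76.3, 69.2 and 66.8 CPM in the humanized library. The same bins of the wild-type library had 68.2, 59.2, 51.8 and 43.1 CPM. Barcodes just outside the rule, under 5000 UMIs and without CD3, had 86.7 CPM in the humanized and 59.8 CPM in the wild-type library. The share of deep barcodes with a Ctla4 UMI climbed with depth, to 93.4% and 86.1% in the deepest bins, against 47.1% and 41.0% in the shallowest. These shares lay close to those that an even spread of Ctla4 over all UMIs of the bin gives, which were 95.6% and 87.6% in the deepest and 48.3% and 41.1% in the shallowest.

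Ctla4 was higher in humanized than in wild-type deep barcodes. The ratio was 1.40-fold (log2 0.48, 0.44 to 0.53), and it was above that of 97.7% of the 17125 genes compared by the same minimum. Of those genes, 1.75% were 1.5-fold or more higher in the humanized library, a size the pooled ratio of Ctla4 did not reach, and 19.3% were lower by that much. The median of all genes was a log2 ratio of -0.24, and size factors built from the median gene raised that of Ctla4 to 0.70, past 1.5-fold. The direction was the same in each of the 4 depth bins, with log2 ratios of 0.38, 0.37, 0.42 and 0.63 going up in depth, of which that of the deepest bin, 1.55-fold, was past 1.5-fold. Of the transcription factors listed as reported for Ctla4, 0 of 9 measured were 1.5-fold higher or lower, with a median log2 ratio of -0.061. Of 13 genes for CTLA4 trafficking and signalling, 1 was 1.5-fold higher and 0 were lower, with a median of -0.15. The 1 was Trat1, a T cell adaptor, with 17 humanized and 10 wild-type UMIs, named after its values were seen.

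**Figure D3:**
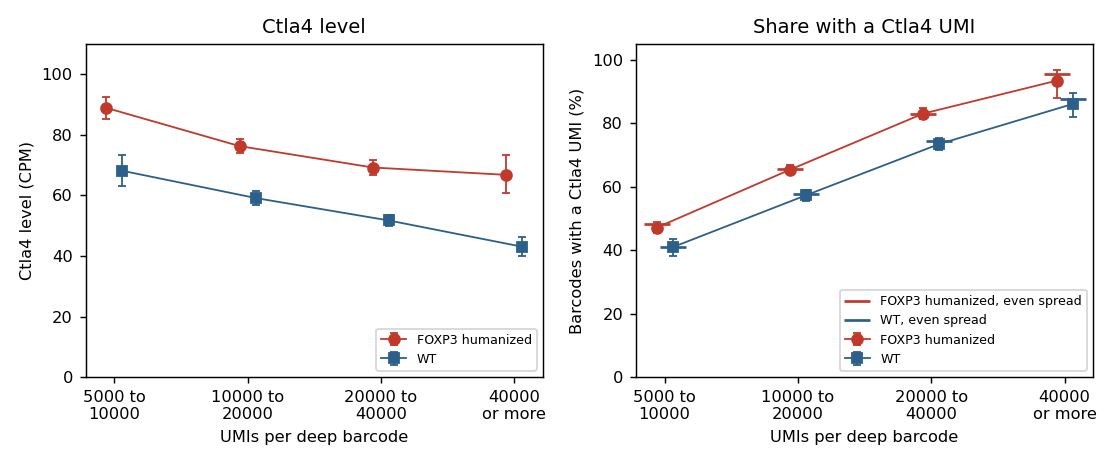
Deep barcodes by UMIs per barcode, FOXP3 humanized and WT, with 95% intervals that cover counting error only. Left, Ctla4 level in CPM, which runs 88.9 to 66.8 and 68.2 to 43.1 in going from the shallowest to the deepest bin. Right, percent of barcodes with a Ctla4 UMI, 47.1 to 93.4 and 41.0 to 86.1, with short bars at the percent that an even spread of Ctla4 over the bin's UMIs gives.

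Ctla4 varied modestly with the expression state of deep barcodes. For each of 14 state lists, and for mitochondrial transcripts, barcodes were sorted into quartiles within 10 depth bins. The top-over-bottom ratio of Ctla4 was highest for the metallothioneins Mt1 and Mt2, which bind metals, at 83.4 CPM in the top and 67.1 CPM in the bottom humanized quartile (log2 0.31) and 58.4 and 48.5 CPM in the wild-type quartiles (log2 0.27). The ratio was lowest for 8 sterol synthesis genes, at 66.0 CPM in the top and 86.8 CPM in the bottom humanized quartile (log2 -0.40) and 47.6 and 59.2 CPM in the wild-type quartiles (log2 -0.32). Heat shock genes gave -0.23 in the humanized and -0.18 in the wild-type library, and S phase genes -0.22 and -0.16. Interferon gamma targets gave -0.095 and -0.13, and type I interferon targets 0.13 and 0.048. The type I interferon list itself was at 0 CPM in quartiles 1 and 2 of each library, and at 0.27 and 1.69 CPM in quartile 3. Its bottom quartile is thus an arbitrary cut among barcodes that do not differ in the list. From quartile 1 to quartile 4 Ctla4 ran 72.2, 74.9, 77.0 and 79.2 CPM in the humanized library, and 53.3, 54.3, 54.3 and 55.1 CPM in the wild-type library. The remaining lists lay between -0.17 (p53 targets) and -0.049 (Apobec1 and Adam2) in the humanized library and between -0.21 (mitochondrial transcripts) and -0.0025 (Apobec1 and Adam2) in the wild-type library.

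**Figure D4:**
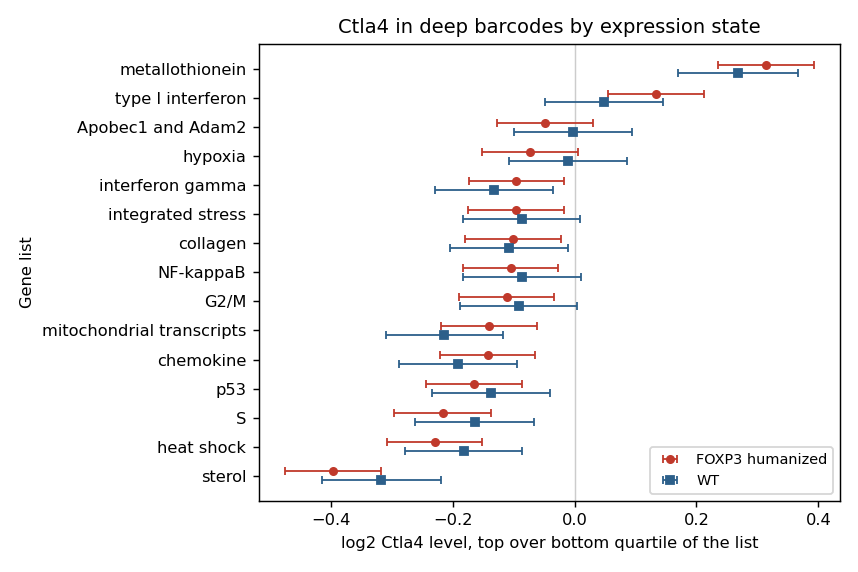
log2 ratio of the Ctla4 level between the top and bottom quartile of deep barcodes for 14 state lists and mitochondrial transcripts, FOXP3 humanized and WT, with 95% intervals that cover counting error only. Metallothioneins are highest at 0.31 and 0.27, and sterol genes lowest at -0.40 and -0.32. The type I interferon list is at 0 CPM in quartiles 1 and 2 of each library, so its bottom quartile is an arbitrary cut.

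In T barcodes Ctla4 went with Treg genes. A T barcode was called Treg-marked when it had a Foxp3 UMI or UMIs of at least 3 of 23 Treg genes, a list without Ctla4. Ctla4 had 1031 CPM (873 to 1209) in 80 humanized and 928 CPM (761 to 1120) in 62 wild-type Treg-marked barcodes. It had 262 CPM (183 to 365) in the 75 other humanized and 333 CPM (211 to 500) in the 34 other wild-type T barcodes. Median depths were 1612 and 1751.5 UMIs in Treg-marked barcodes and 1557 and 1662 in the others. Treg-marked over other T barcodes, the log2 ratio was 1.97 (1.44 to 2.55) in the humanized and 1.48 (0.82 to 2.20) in the wild-type library. T barcodes with 6 or more Treg genes held 58.6% of the Ctla4 UMIs of humanized and 56.5% of those of wild-type T barcodes. T barcodes marked by gamma-delta T17 genes, those of T cells that make interleukin 17, and not by Treg genes had 177 CPM (81.1 to 337, 30 barcodes) in the humanized and 212 CPM (77.9 to 462, 17 barcodes) in the wild-type library. Those marked by both lists had 844 CPM (551 to 1237, 15 barcodes) and 409 CPM (196 to 752, 11 barcodes). In this group 1 humanized barcode held 17 of 26 Ctla4 UMIs, or 65.4%, and 1 wild-type barcode 6 of 10, or 60%. The levels without these barcodes were not computed. Those marked by neither had 314 CPM (205 to 461) and 417 CPM (243 to 668), which overlapped the gamma-delta T17 intervals without Treg marks. Both kinds of T barcode, Treg-marked and other, lay above the deep barcodes, since the others were still 3.46-fold (2.41 to 4.81) and 6.14-fold (3.89 to 9.22) higher than deep barcodes in level.

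The level climbed with the number of Treg genes detected, unevenly. With 0 Treg genes it was 122 CPM (33.2 to 312) in humanized and 213 CPM (43.9 to 622) in wild-type T barcodes. With 6 or more it was 2031 CPM (1668 to 2450) and 1406 CPM (1104 to 1765), in 28 barcodes of each library. In between, T barcodes with 2, 3, 4 and 5 Treg genes had 345, 218, 375 and 1174 CPM in the humanized library. In the wild-type library they had 348, 479, 633 and 410 CPM. Humanized barcodes with 3 or 4, counted as Treg-marked, had counting intervals that overlapped that of barcodes with 2, counted as other. T barcodes with a Foxp3 UMI had 3338 CPM (2515 to 4345, 10 barcodes) in the humanized and 1363 CPM (998 to 1818, 18 barcodes) in the wild-type library. A single humanized barcode weighed on these values. It held 33 Ctla4 UMIs among 3036, with 3 Foxp3 UMIs and 7 Treg genes. Without it the humanized level was 1637 CPM (1026 to 2478) with a Foxp3 UMI, 1501 CPM (1183 to 1879) with 6 or more Treg genes, 822 CPM (681 to 985) in Treg-marked and 553 CPM (468 to 647) in all T barcodes.

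**Figure D5:**
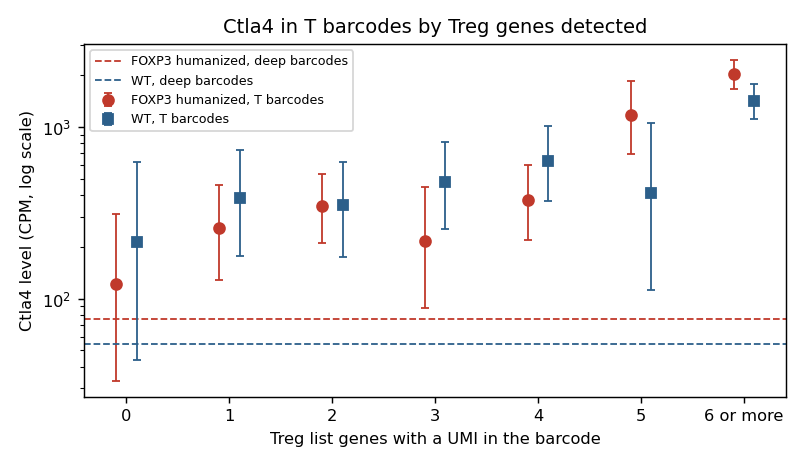
Ctla4 level (CPM, log scale, 95% Poisson intervals) in T barcodes by the number of Treg list genes with a UMI, FOXP3 humanized and WT, with the level of deep barcodes as dashed lines. Levels are 122 and 213 CPM with 0 Treg genes and 2031 and 1406 CPM with 6 or more.

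The genes most like Ctla4 over 155 humanized and 96 wild-type T barcodes, by the same measure with 5 depth bins and 2065 genes, included costimulatory receptors. Tnfrsf4, the receptor OX40, had correlations of 0.41 in the humanized and 0.43 in the wild-type library. Cd2, an adhesion receptor, had 0.35 and 0.38. Tnfrsf9, the receptor 4-1BB, had 0.30 and 0.39, and Tnfrsf18, the receptor GITR, had 0.35 and 0.30. AW112010, Odc1, which makes polyamines, Ikzf2, the transcription factor Helios, and Sdf4 followed, at 0.25 to 0.28 in the humanized and 0.23 to 0.41 in the wild-type library. Tnfrsf4, Tnfrsf9, Tnfrsf18 and Ikzf2 are also on the Treg list. The lowest correlation common to both was that of Trdc, the constant region of the gamma-delta T cell receptor, at -0.23 and -0.35. T barcodes with a Trdc UMI had 146 CPM of Ctla4 (58.8 to 302, 27 barcodes) in the humanized and 223 CPM (89.7 to 460, 16 barcodes) in the wild-type library, and those without had 771 and 805 CPM. Of the 16 wild-type barcodes with Trdc, 2 had a Ctla4 UMI, and 1 of them held 6 of the 7 UMIs, or 85.7%. The split by Trdc uses the same barcodes as its correlation and restates it.

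Single T cell genes sorted the Ctla4 level in different ways. T barcodes with a Tnfrsf4 UMI had 1449 CPM in the humanized and 1208 CPM in the wild-type library, and those without had 335 and 256 CPM. With an Icos UMI they had 1025 and 938 CPM, and without 296 and 308 CPM. Cd28, present in 37.4% of humanized and 35.4% of wild-type T barcodes, sorted less. The levels were 932 and 821 CPM with a Cd28 UMI and 495 and 632 CPM without. The share with a Ctla4 UMI was 46.6% with and 45.4% without Cd28 in the humanized library, and 64.7% and 48.4% in the wild-type library. The humanized gap in level thus lay in counts per barcode, and the weight of single barcodes on it was not computed. With a UMI of Tcf7, a factor of resting and memory T cells, T barcodes had 437 CPM (254 to 699) and 175 CPM (64.1 to 380). Without a Tcf7 UMI they had 701 CPM (599 to 815) and 827 CPM (689 to 986). The values with a Tcf7 UMI rest on 17 and 6 Ctla4 UMIs, and the humanized intervals overlapped. For Cd28 the wild-type intervals overlapped, at 626 to 1056 with and 494 to 797 without a UMI. Pdcd1, which encodes the receptor PD-1, and Il7r, the interleukin 7 receptor, sorted it in opposite directions in the 2 libraries, with counting intervals that overlapped in each. With a Pdcd1 UMI T barcodes had 478 CPM in the humanized and 1147 CPM in the wild-type library, and without 701 and 650 CPM. With an Il7r UMI they had 732 and 623 CPM, and without 642 and 739 CPM. These genes were picked after the classes had been seen, and Icos and Tnfrsf4 are on the Treg list.

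Between the libraries, no difference of Ctla4 in T barcodes as a whole was detectable at this depth. Humanized over wild-type, the log2 ratio was -0.089 (-0.42 to 0.25), beside a median of -0.13 over 3388 genes, of which 9.47% were higher and 19.3% lower by 1.5-fold or more. In Treg-marked barcodes it was 0.15 (-0.21 to 0.52) and in the others -0.34 (-1.14 to 0.48). By depth the direction varied, with log2 ratios of -0.42 (-1.05 to 0.22) under 1500 UMIs, -0.83 (-1.36 to -0.29) at 1500 to 2500 and 1.16 (0.53 to 1.83) at 2500 or more. The last rests in part on the barcode with 33 Ctla4 UMIs. Without it the humanized level at 2500 or more UMIs was 566 CPM (406 to 768). The wild-type level there was 438 CPM (296 to 626), and these intervals overlapped. Of the 41 humanized Ctla4 UMIs left in that bin, 1 further barcode held 17, or 41.5%. The level without both barcodes was not computed, so the direction in this bin is not settled.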

How the data were processed

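Per the labels' protocols, dissociated MC38 tumours were enriched for immune cells on Percoll and captured in DNBelab C droplets. The values deposited are whole UMI counts, not normalized, and PISA 1.0 wrote the matrices, per the file headers. The submitters' processing notes name GRCm39. Not given in the sources used here are the aligner, the annotation, the cell calling and the treatment of intronic reads. Each library's list held genes with a UMI in it. The 2 oligo libraries were not used here, and no cells were filtered or called as doublets (6 wild-type and 0 humanized barcodes had over 10% mitochondrial UMIs).

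UMIs were summed per class and library and scaled to CPM, the counts per 1000000 UMIs over all genes, with exact Poisson intervals. Shares have exact binomial (Clopper-Pearson) intervals and log2 ratios exact conditional intervals, all at 95%, with no test because each genotype had 1 library. Ratios over all genes used genes present in both lists whose 2 sums held 20 UMIs or more in all, and a pseudocount of 0.5 UMIs. Likeness was the smaller of the 2 libraries' Pearson correlations of log(1 + counts per 10000), each depth bin's mean taken off, among genes with a UMI in at least 1% of deep or 10% of T barcodes. The genes named by rule were Ctla4, Cd28, Icos, Cd80, Cd86, Foxp3, the 8 most like Ctla4 in each class and the genes of the lists, of which some are not reported here. Ratios and likeness were tested on simulated counts. Python 3.11.15, numpy 2.4.6, scipy 1.17.1, pandas 2.3.3 and matplotlib 3.10.9 were used.

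The gene, the barcode rules and the lists were chosen with earlier results of these data known. The look-up of the locus, the genes sorted singly in T barcodes, the depth bins and the fold thresholds were chosen after levels of Ctla4 had been seen. A threshold of 1.25-fold between libraries, which Ctla4 exceeds in deep barcodes, was also tried and was replaced by 1.5-fold, which its pooled ratio does not reach, but which it passes with median-of-ratios size factors and in the deepest bin.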

Additional observations from a re-analysis of the deposited data

Results flagged for a closer look

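Barcodes outside both classes also held Ctla4. Deep barcodes with a CD3 or Ptprc UMI, 223 humanized and 113 wild-type, had 91.5 CPM (82.2 to 102) in the humanized and 71.2 CPM (61.5 to 82.0) in the wild-type library. Their T cell list summed to 323 and 310 CPM. Barcodes under 5000 UMIs without CD3, 1038 humanized and 777 wild-type, had 86.7 CPM (76.6 to 97.7) and 59.8 CPM (49.9 to 71.0). A Ctla4 UMI was found in 22.5% and 14.9% of them, at median depths of 2958.5 and 2745 UMIs.

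Humanized over wild-type, Ctla4 had a log2 ratio of -0.089 in T barcodes and 0.48 in deep barcodes, opposite in sign. The T interval, -0.42 to 0.25, includes 0. With 1 library per genotype the difference between the 2 ratios was not tested.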

How the results depend on the processing

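Of 89 alternatives over 10 results, 68 kept the value within its counting interval, 21 moved it and 0 turned the direction of a called value. The log2 ratio of T over deep barcodes was 2.80 in the humanized library with a depth boundary of 3000 UMIs, 2.48 in the humanized and 3.27 in the wild-type library with 10000, and 2.73 and 3.18 with median-of-ratios size factors. It was 2.87 in the humanized library without the barcode with the most Ctla4 UMIs. The log2 ratio of humanized over wild-type was 0.70 in deep barcodes with median-of-ratios size factors and 0.42 with the humanized depth bins weighted as in the wild-type library. In T barcodes it was -0.54 with a boundary of 3000, and it ranged from -0.54 to 0.083 over its 8 alternatives. Treg-marked over other T barcodes was 2.75 in the humanized library with a Foxp3 UMI alone as the mark, of whose Ctla4 UMIs 1 of 10 barcodes held 60.0%: without that barcode the level with a Foxp3 UMI was 1637 CPM, against 3338 CPM with it, and barcodes without a Foxp3 UMI had 497 CPM. The share of deep barcodes with a Ctla4 UMI was 60.9% in the humanized and 59.0% in the wild-type library with a boundary of 3000, 70.9% and 65.8% with 10000, 7.65% and 5.62% thinned to 1000 UMIs and 32.5% and 24.9% thinned to 5000. It was 59.5% in the wild-type library with deep barcodes of at most 40000 UMIs. The share of T barcodes was 33.8% and 41.1% thinned to 1000 UMIs. The alternative with weighted depth bins was chosen after seeing the data. No paired analysis was possible because each genotype had 1 cDNA library, and for the same reason no replicate could be left out. Depth limits the T barcodes, whose levels rest on 186 and 131 Ctla4 UMIs.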

Other observations

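Of the 4 B7 ligands with enough UMIs to compare between libraries, 0 were 1.5-fold higher and 2 were lower in humanized deep barcodes, where 1.75% of all 17125 genes compared were higher and 19.3% lower by that much. Cd276 (B7-H3) led the family there, at 5.75 CPM in the humanized and 4.82 CPM in the wild-type library, while Cd274 (PD-L1) was at 0.76 and 1.27 CPM. In T barcodes Cd274 was at 53.6 and 59.3 CPM and Pdcd1lg2 (PD-L2) at 32.1 and 59.3 CPM, from 9 to 15 UMIs each.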
